A study of Homo sapiens with 6 samples.

Results

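Long intergenic non-coding transcripts, which carry the gene symbol LINC followed by a number, were analysed in SK-OV3 cells in which the long non-coding RNA PVT1 had been reduced with siRNA. They were chosen by symbol and by their mean raw count, which had to be at least 20 over all 6 libraries. Among 59653 genes counted, 2128 had such a symbol, and 170 of these met the minimum, while 1052 had 0 counts in every library and 906 had some counts but fell under the minimum. The count table came from 3 libraries of SK-OV3 cells given a pool of siRNAs to PVT1 (siPVT1) and 3 given a pool of non-targeting siRNAs (siControl), all collected 48 h after transfection. The label for genotype was wildtype in both groups, and both were 1 cell line, so that no second ovarian cancer line and no untransfected cells stood beside them. Just inside the minimum were LINC00261, LINC02101 and LINC00921, each with a mean raw count of 20, and the closest outside were LINC02795 (19.8), LINC02018 (19.5) and LINC01356 (19.3).

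Long intergenic non-coding RNAs are transcribed by RNA polymerase II from stretches between protein-coding genes, and most are spliced and polyadenylated like messenger RNA but hold no long open reading frame. Many are made at low levels, in few cell types and from regions that also act as enhancers, and much of the RNA is degraded in the nucleus soon after it is made. A small number act on the chromatin or the expression of a gene nearby, others bind proteins or microRNAs, and for most no function is known. Of the 170 LINC transcripts 162 could be placed in the GENCODE annotation of GRCh38, 151 by symbol and 11 through another name, and 158 of those placed were annotated as lncRNA. They had a median of 6 annotated exons (range 1 to 57, with 19 of a single exon), a median exonic length of 4204 bases and a median span of 27.0 kb. The name intergenic does not mean apart from other transcripts. The nearest protein-coding gene lay at a median gap of 19059 bases, 26 gene bodies overlapped it, 68 LINC transcripts had exons over an exon on the opposite strand and 27 over an exon on the same strand. The counting is not stated to use strand, so reads of such pairs cannot be told apart.

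PVT1, the targeted gene, was measured at 3298, 4090 and 3377 normalized counts in the siControl libraries and at 2350, 2111 and 2062 in the siPVT1 libraries, each in the order of the replicate numbers. All 3 siPVT1 libraries lay below all siControl libraries, and the log2 fold change was -0.72 ± 0.10 (SE, adjusted p = 0.000342), which is less than a 2-fold change. Libraries held between 28383171 and 35059576 counts, and normalized counts are given per library scaled to the mean effective library size. Of the epithelial and ovarian markers, KRT7, KRT8, KRT18, PAX8 and VIM were abundant, whereas MUC1 (3 to 9 raw counts), CDH1 (0 to 43) and EPCAM (44 to 126) were low. Markers of blood and stroma were at or near 0 for PTPRC, CD3E, DCN and HBB, while PECAM1 went from 36 to 42 raw counts in siControl to 264 to 299 in siPVT1 and COL1A1 from 105 to 133 to 459 to 531. VWF went from 17 to 31 raw counts to 71 to 78, and CD68 had 542 to 646 in siControl and 618 to 800 in siPVT1. In these bulk samples fewer cells of a type and less RNA per cell cannot be told apart.

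All 170 LINC transcripts passed the filter on low counts and were tested among 19008 genes with edgeR's quasi-likelihood test. A transcript was called when its Benjamini-Hochberg adjusted p was under 0.05 and its change at least 2-fold. Lower in siPVT1 were 23 LINC transcripts, among them LINC00565, LINC00452, LINC00944, LINC00460 and the abundant LINC00958, and 14 were higher, among them LINC00683, LINC00173, LINC00887 and LINC01252. That made 37 of 170 called (21.8%), beside a background of 21.5% over all genes tested. Those called lower were 13.5% of the LINC transcripts against 9.64% of all genes, and those called higher were 8.24% against 11.8%. By the adjusted p alone 102 differed (60%, background 57.9%), 56 lower and 46 higher, with 29.5% of all genes higher and 28.4% lower by this criterion. The groups did not overlap for 115 LINC transcripts (67.6%, background 65.6%), with every siPVT1 library below every siControl library for 62 and above for 53. The shares called, past the adjusted p alone and without overlap were close to the background and are no result about LINC transcripts as a class, and the difference between the directions was not tested. The median log2 fold change was 0.02 for LINC transcripts and 0.00 for all genes, and the range was -4.35 to 5.72.

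The minimum acted on the mean of both groups, so a transcript low in siControl could pass through siPVT1 and the reverse. In 26 of the 170 the lower group had a mean raw count under 20, and 16 of these were called. Among the 16 were LINC00683, LINC00173, LINC00887, LINC01252 and LINC00243, under 20 in siControl, and LINC00452, LINC00944, LINC00565, LINC01094 and LINC02561, under 20 in siPVT1. Both ends of the range of log2 fold changes, LINC00452 and LINC00683, are thus transcripts that passed through 1 group. With at least 20 required in both groups, 21 of 144 were called (14.6%). Over all genes tested, 19.4% of the 15005 with a mean raw count of at least 20 were called, and 16.9% of the 14244 with at least 20 in both groups. The error of a log2 fold change fell with depth. Among LINC transcripts with 20 to 50 normalized counts, 15 of 66 were called and 25 had an adjusted p under 0.05, with a median SE of 0.27 on the log2 scale. Of all genes at that level 32.8% were called and 45.3% passed the adjusted p. Among those with 300 to 1000 normalized counts, 2 of 22 were called although 20 had an adjusted p under 0.05, with a median SE of 0.09. Of all genes at the latter level 16.9% were called and 67.0% passed the adjusted p. Replicates spread more in siPVT1, with a median coefficient of variation of 15.6% against 9.97% in siControl, and over all genes tested it was 12.97% against 6.90%.

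**Figure D1:**
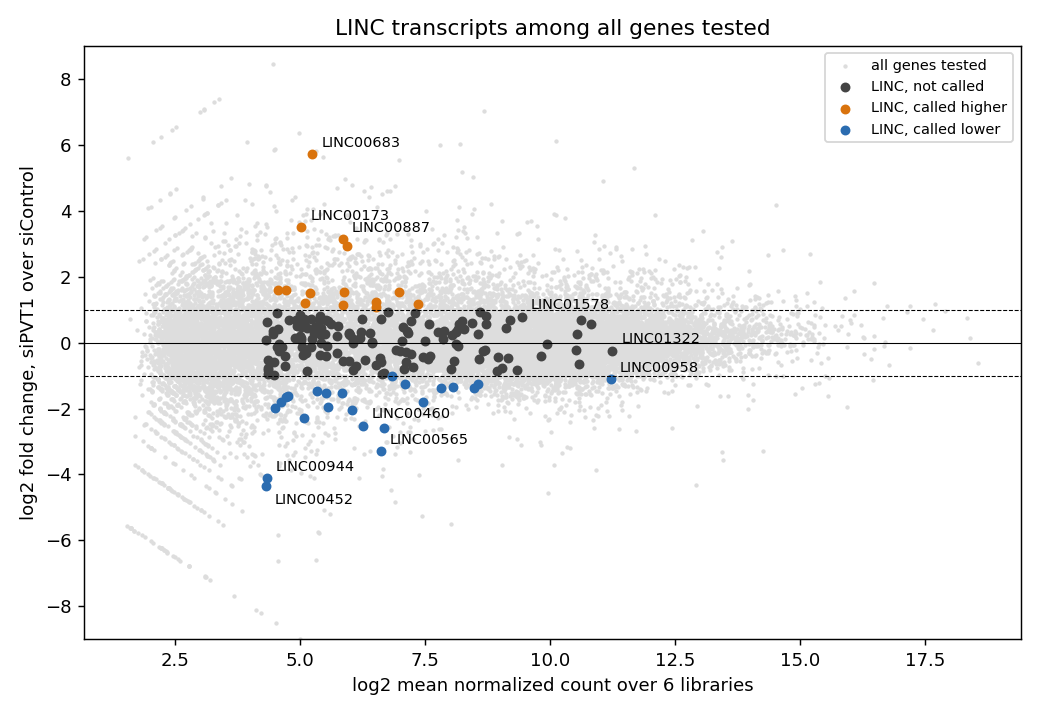
Log2 fold change of siPVT1 over siControl (y axis) against the log2 of the mean normalized count over the 6 libraries (x axis) for all 19008 genes tested (light grey) and the 170 LINC transcripts (dark grey not called, orange called higher, blue called lower). Dashed lines mark a 2-fold change; LINC00683 is the highest LINC transcript at 5.72 and LINC00452 the lowest at -4.35, both at low mean counts, and LINC00958 is the only called one above 1000 normalized counts.

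Counts were concentrated in few transcripts. The 10 with the most reads held 42.9% of the normalized counts of the 170, 7 had a mean over 1000 and 102 had a mean under 100. Per kb of annotated exon, the median was 17.7 normalized counts, against 133 for the 13797 protein-coding genes tested. LINC00958, a transcript of chromosome 11 (chr11:12961541-12989597, minus strand) studied in bladder and other carcinomas, had 409 normalized counts per kb. Only LINC00674 had more per kb (465 normalized counts), and its annotated exonic length of 160 bases overlaps another gene on the same strand.

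LINC00958 had 3314, 3128 and 3217 normalized counts in siControl and 1611, 1436 and 1452 in siPVT1. It fell by 1.10 ± 0.07 on the log2 scale (SE, adjusted p = 6.45e-06), and the 3 libraries of each group lay within a narrow range well apart from the other group. Of the 9 other transcripts with the most reads none reached a 2-fold change. LINC02693 was lower (log2 fold change -0.64 ± 0.06, adjusted p = 7.07e-05), with means of 1851 ± 42.9 in siControl and 1190.2 ± 57.1 in siPVT1 (SD, n = 3). LINC00910 (-0.40 ± 0.08, adjusted p = 0.00386), LINC00667 (-0.22 ± 0.06, adjusted p = 0.00995) and LINC01322 (-0.24 ± 0.09, adjusted p = 0.0497) were lower by less, and the adjusted p of LINC01322 was 0.05 or more in 5 of 13 refits (up to 0.173). LINC00963, reported in prostate cancer, was higher (0.69 ± 0.08, adjusted p = 0.000174), as was LINC00342 (0.56 ± 0.08, adjusted p = 0.000484). LINC01578, now named CHASERR, lies just upstream of the chromatin remodeller gene CHD2 and is known to restrain it. It had 515, 494 and 511 normalized counts in siControl and 835, 925 and 864 in siPVT1 (log2 fold change 0.79 ± 0.07, adjusted p = 5.00e-05), and CHD2 itself changed by 0.62 ± 0.11 (adjusted p = 0.00183). Exons of the 2 genes overlap on the same strand, so their reads are divided by estimation.

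Among the lower LINC transcripts was a pair at 13q34. LINC00565, named SWINGN in the annotation, is a single-exon transcript (chr13:113923052-113928991, minus strand) described as an enhancer RNA that binds the SWI/SNF remodelling complex and acts on GAS6, the gene of a secreted ligand for the TAM receptor kinases. It had 179, 182 and 170.0 normalized counts in siControl and 14.5, 15.3 and 23.5 in siPVT1. All siPVT1 libraries were far below all siControl libraries, and the change was -3.29 ± 0.19 on the log2 scale (adjusted p = 5.28e-06), a fitted fold of 9.79. Its neighbour LINC00452 (chr13:113888306-113923512, plus strand) had 39, 43 and 36 raw counts in siControl and 2, 1 and 2 in siPVT1. The ratio of siControl to siPVT1 was 21.7 with an exact 95% counting interval of 9.06 to 68.2, and the fitted log2 fold change of -4.35 depends on the prior count. The gene bodies overlap by 461 bases on opposite strands, so part of the reads may belong to either. The start of LINC00565, with 250 bases before it and 50 after it, is shown because it had the smallest p among the 170. It was taken from RefSeq (GRCh38.p14, chr13:113928942-113929241, minus strand) and is written 5′ to 3′, with the only match to the motifs searched, to the antioxidant response motif TGACNNNGC, in capitals.
LINC00565: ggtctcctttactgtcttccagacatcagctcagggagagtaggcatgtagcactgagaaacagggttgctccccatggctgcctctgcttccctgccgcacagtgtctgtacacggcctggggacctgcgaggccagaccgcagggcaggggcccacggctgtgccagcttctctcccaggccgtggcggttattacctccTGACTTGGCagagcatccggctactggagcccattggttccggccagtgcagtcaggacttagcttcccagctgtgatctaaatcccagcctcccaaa

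The genes on either side moved in both directions. GAS6 had 1090.4, 1089 and 1086 normalized counts in siControl and 4178, 3821 and 3773 in siPVT1 (log2 fold change 1.85 ± 0.06, adjusted p = 7.66e-07), the direction opposite to LINC00565 and LINC00452. TMEM255B (1.33 ± 0.20, adjusted p = 0.000691) was called higher as well, and RASA3, which encodes a Ras GTPase-activating protein, was higher by just under 2-fold (0.94 ± 0.07, adjusted p = 1.59e-05). The divergent transcript GAS6-DT had a log2 fold change of 0.90 ± 0.16 (adjusted p = 0.00152), and GAS6-AS1 one of 0.03 ± 0.20 (adjusted p = 0.893). C13orf46, whose gene body lies on the other side of LINC00565 at a gap of 24714 bases, was lower (-1.18 ± 0.14, adjusted p = 0.000169), with 287, 299 and 259 normalized counts in siControl and 105, 120.2 and 147 in siPVT1. Among the tested genes the 3 lower ones lay side by side between the higher GAS6 and RASA3. The flanking genes other than GAS6 and C13orf46 were chosen after their values were seen.

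**Figure D2:**
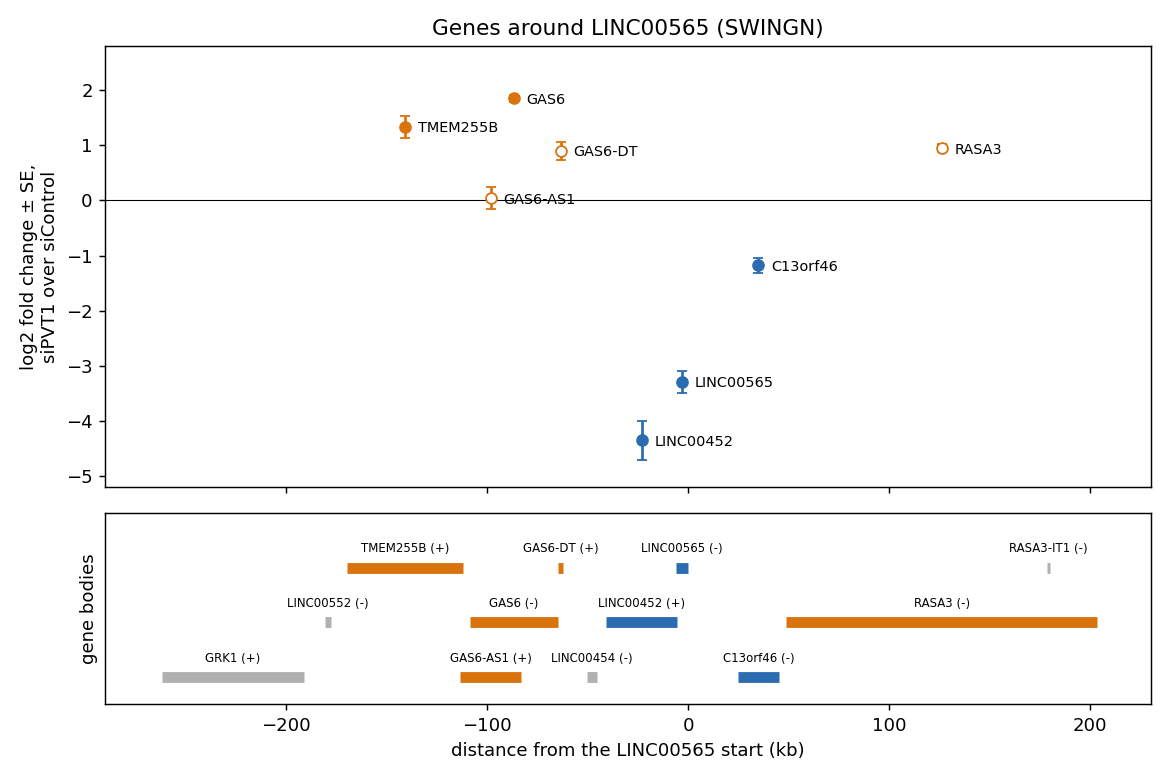
Genes around LINC00565: the upper panel gives log2 fold change ± SE of each tested gene at the middle of its body (filled called, open not called, orange above 0, blue below 0), and the lower panel the gene bodies with their strand, by distance in kb from the LINC00565 start (grey genes were not tested). LINC00452, LINC00565 and C13orf46 are below 0, and TMEM255B, GAS6 and RASA3 on both sides are above 0.

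LINC00460, on the same chromosome arm (chr13:106374477-106384315, plus strand) and reported to favour invasion in several carcinomas, had 141, 115 and 133 normalized counts in siControl and 25.6, 17.5 and 24.4 in siPVT1. The groups did not overlap, and it fell by 2.52 ± 0.19 on the log2 scale (adjusted p = 1.86e-05). Its nearest protein-coding gene, EFNB2, encodes the membrane ligand ephrin-B2 and lies 105430 bases away on the opposite strand. EFNB2 was called lower too (-1.05 ± 0.08, adjusted p = 1.59e-05), with 1918, 1873 and 1939.8 normalized counts in siControl and 845, 911 and 1011 in siPVT1. The RefSeq start of LINC00460 (chr13:106376314-106376613, plus strand) lies within the gene body annotated by GENCODE. It is shown because it holds 2 matches, in capitals, to the AP-1 motif TGANTCA, at 44 and 17 bases before the start.
LINC00460: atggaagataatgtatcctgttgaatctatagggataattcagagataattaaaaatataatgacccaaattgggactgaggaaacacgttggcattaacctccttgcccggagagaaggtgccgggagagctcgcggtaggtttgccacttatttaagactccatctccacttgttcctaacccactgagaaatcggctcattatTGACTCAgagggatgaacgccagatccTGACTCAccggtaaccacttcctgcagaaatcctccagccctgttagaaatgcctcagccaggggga

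LINC00944 on chromosome 12 had 41, 46 and 31 raw counts in siControl and 2 in each siPVT1 library, a ratio of 18.1 (exact 95% counting interval 8.08 to 50.4). Intervals of this kind cover counting error only. LINC01963, of a single exon on chromosome 2, was 166, 206 and 152 in siControl and 8.91, 34.96 and 42.3 in siPVT1 as normalized counts (log2 fold change -2.58 ± 0.38, adjusted p = 0.000611), with siPVT1 replicate 1 well below the other siPVT1 libraries. LINC00680 (-1.79 ± 0.13, adjusted p = 1.33e-05) bears a name that the annotation gives to several genes and could not be placed. LINC00662 went from a mean of 532 ± 28.7 normalized counts to 224 ± 6.75 and LINC00665 from 380.3 ± 7.34 to 149 ± 16.1 (SD, n = 3), both on chromosome 19 and both studied in hepatocellular and other cancers. Their log2 fold changes were -1.25 ± 0.08 and -1.35 ± 0.10. LINC01123, LINC01278, LINC01776 and LINC01094 had log2 fold changes of -1.39, -1.39, -1.25 and -1.97, with adjusted p from 1.34e-05 to 8.03e-05.

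LINC02561 and LINC01547, like LINC00674, LINC00894, LINC01117, LINC00526, LINC01273 and LINC01270, fall outside the rule for naming and were chosen after their values were seen. LINC02561 (chr10:5266033-5271236, minus strand) lies in the AKR1C cluster of aldo-keto reductase genes, which reduce steroids and carbonyl drugs. It had 49.5, 57.6 and 60.0 normalized counts in siControl and 8.91, 8.74 and 16.0 in siPVT1 (-2.28 ± 0.28, adjusted p = 0.000226). In the same stretch the pseudogene AKR1C7P, 3.94 kb from its start, had a log2 fold change of -2.40 ± 0.23 (adjusted p = 5.15e-05), AKR1C8P one of -3.54 ± 0.45 (adjusted p = 0.000273) and AKR1C3 one of -0.79 ± 0.08 (adjusted p = 6.54e-05). The AKR1C genes are close paralogs, and their counts are uncertain where reads were divided between copies. AKR1C4, the nearest protein-coding gene, had a mean raw count of 0.50 and was not tested. Changes nearby were not confined to AKR1C genes. TUBAL3 was called lower (-1.42 ± 0.35, adjusted p = 0.00872), and NET1 was higher by less than 2-fold (0.51 ± 0.10, adjusted p = 0.00334). LINC01547, which lies 84 bases from FAM207A with a divergent start, was lower (-2.04 ± 0.21, adjusted p = 8.36e-05), and FAM207A changed by -0.34 (adjusted p = 0.0154).

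Among the higher LINC transcripts the steepest was LINC00683 on chromosome 18 (chr18:76528652-76670111, plus strand). It had 3, 1 and 0 raw counts in siControl and 82, 66 and 63 in siPVT1. The ratio of siPVT1 to siControl was 57.2 with an exact 95% counting interval of 22.03 to 212, and the fitted log2 fold change was 5.72 ± 0.52 (adjusted p = 4.28e-05). Its nearest protein-coding gene, the zinc finger gene ZNF516, was higher by less than 2-fold (0.88 ± 0.14, adjusted p = 0.000901). LINC00887 (chr3:194296191-194322871, minus strand) had 10.5, 18.2 and 6.47 normalized counts in siControl and 161, 102 and 47.0 in siPVT1 (3.13 ± 0.52, adjusted p = 0.00114). The groups did not overlap, although siPVT1 replicate 3 lay far below replicate 1. The starts of LINC00683 (chr18:76619527-76619826, plus strand) and LINC00887 (chr3:194312755-194313054, minus strand) are shown as 2 of the 3 steepest rises, and RefSeq places both within the longer GENCODE gene bodies. Capitals mark 2 matches to the interferon response motif GAAANNGAA in LINC00887, 1 before the start and 1 after it on the opposite strand, and none of the motifs searched was found in LINC00683. The starts of LINC00173, the other of the 3 steepest rises, and of LINC02561 are not shown and held no match either.
LINC00683: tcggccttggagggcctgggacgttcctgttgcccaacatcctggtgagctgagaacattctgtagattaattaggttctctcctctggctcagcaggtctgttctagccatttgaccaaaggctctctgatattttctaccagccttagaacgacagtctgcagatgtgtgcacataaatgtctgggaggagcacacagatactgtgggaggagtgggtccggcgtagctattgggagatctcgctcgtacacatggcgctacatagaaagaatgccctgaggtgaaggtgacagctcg
LINC00887: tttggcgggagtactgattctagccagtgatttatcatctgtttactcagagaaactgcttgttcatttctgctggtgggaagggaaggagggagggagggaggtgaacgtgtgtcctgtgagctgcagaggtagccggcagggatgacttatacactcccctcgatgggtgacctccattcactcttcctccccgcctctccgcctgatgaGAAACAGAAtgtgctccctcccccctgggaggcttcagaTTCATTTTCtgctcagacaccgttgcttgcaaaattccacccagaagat

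LINC01252 had 16.2, 8.08 and 17.6 normalized counts in siControl and 121, 132 and 73.3 in siPVT1 (2.94 ± 0.33, adjusted p = 0.00014). LINC00173 had 1.90, 4.04 and 9.24 in siControl and 93.5, 68.8 and 16.9 in siPVT1 (3.50 ± 0.73, adjusted p = 0.00357), and siPVT1 replicate 3 was closer to siControl than to the other siPVT1 libraries. Its adjusted p was 0.0684 with both libraries numbered 2 left out. LINC02615, which is divergent from the progesterone receptor membrane component gene PGRMC2, had 69.5, 64.7 and 57.3 in siControl and 160.4, 186 and 211 in siPVT1 (1.54 ± 0.15, adjusted p = 6.15e-05). Its partner PGRMC2 changed by 0.41 (adjusted p = 0.000732). LINC02310 (1.16 ± 0.13, adjusted p = 0.000109), which the annotation did not hold, LINC00243, LINC02188, LINC00621 and LINC00313 were also called, with log2 fold changes from 1.16 to 1.59, and LINC02188 missed the 2-fold threshold without siControl replicate 3 (0.96). For 10 of the 14 called higher, siPVT1 replicate 3 was the siPVT1 library nearest to siControl, as it was for 66.9% of all genes called higher. For the 23 called lower it was the nearest in 7 (30.4%), beside 50.5% of all genes called lower.

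Beside 2 of the called higher LINC transcripts the nearest protein-coding gene was called higher as well. Over all protein-coding genes tested 12.5% were called higher, and the 2 pairs are given as examples. LINC01615 had 61.9, 41.4 and 59.1 normalized counts in siControl and 158, 116 and 112 in siPVT1 (1.24 ± 0.21, adjusted p = 0.00124). THBS2, which encodes the matrix protein thrombospondin-2 and lies 52773 bases away, had 9.52, 9.09 and 13.9 in siControl and 125, 86.3 and 32.9 in siPVT1 (2.88 ± 0.50, adjusted p = 0.00146). LINC02246 had 23.8, 39.4 and 27.7 in siControl and 88.0, 110.4 and 63.9 in siPVT1 (1.52 ± 0.27, adjusted p = 0.00166). NRIP1, a nuclear receptor corepressor gene 42683 bases away, had 3461, 3377 and 3404 in siControl and 15003, 13686 and 10283 in siPVT1 (1.93 ± 0.13, adjusted p = 9.77e-06).

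**Figure D3:**
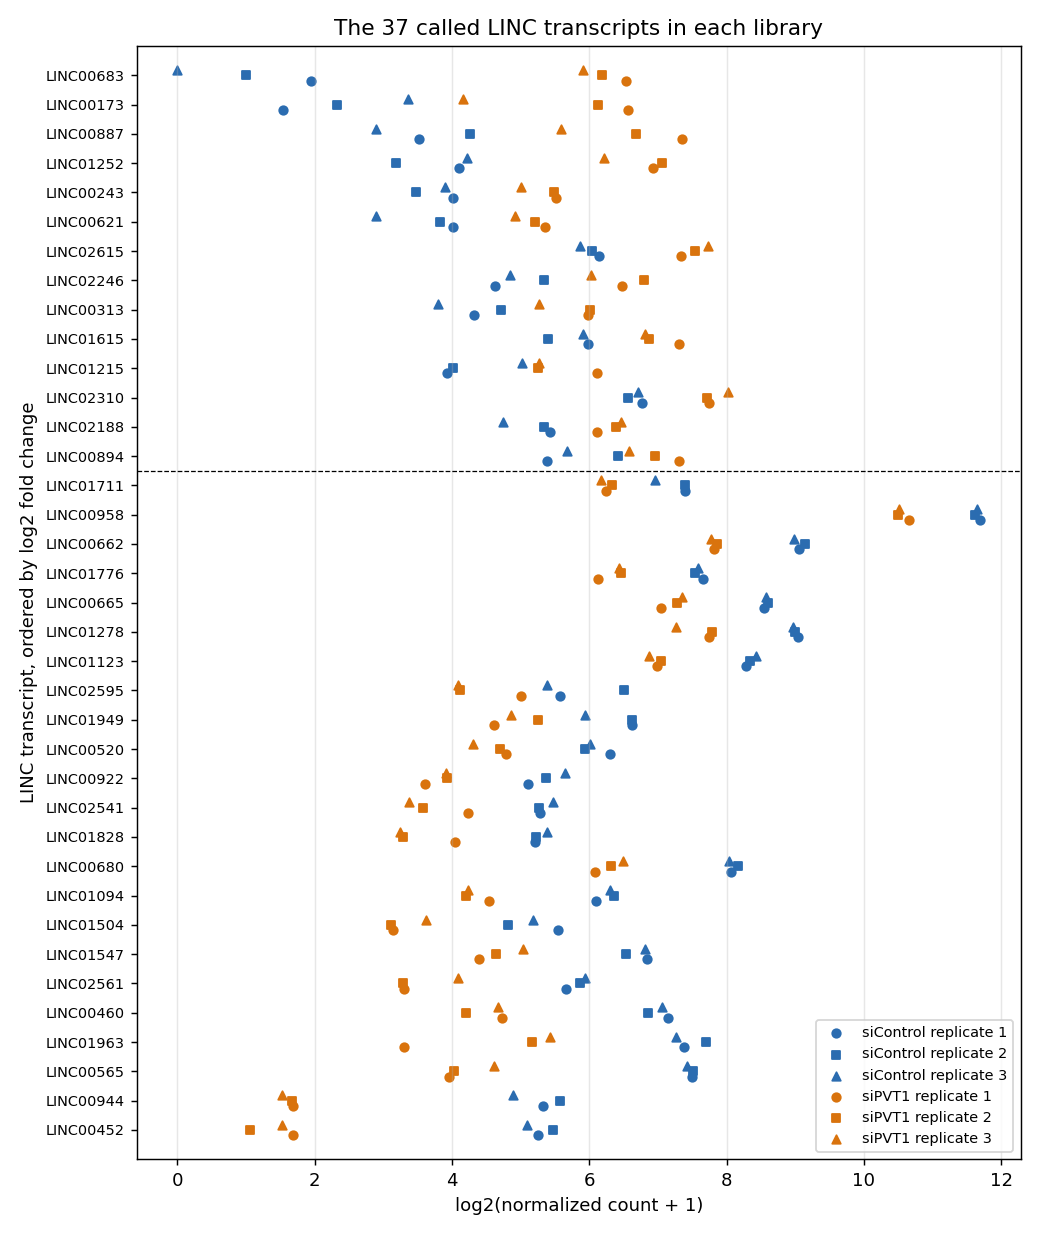
Normalized counts of the 37 called LINC transcripts in each library, as log2(normalized count + 1) on the x axis, ordered by log2 fold change (blue siControl, orange siPVT1, with circles, squares and triangles for replicates 1, 2 and 3). The 14 above the dashed line were called higher and the 23 below it lower, and LINC00565, LINC00958, LINC00662 and LINC01123 show tight, well separated groups whereas LINC00173 and LINC00887 spread widely within siPVT1.

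Of 28 LINC transcripts listed for a role reported in cancer or development, 19 were among the 170. Of these, 5 were called and all 5 were lower, namely LINC00958, LINC00662, LINC00665, LINC00460 and LINC00520. Over all genes 9.64% were called lower and 11.8% higher, and since the list was chosen with earlier results known its count is a description. LINC00520 had 78.1, 60.6 and 63.7 normalized counts in siControl and 26.7, 25.1 and 18.8 in siPVT1 (-1.52 ± 0.22, adjusted p = 0.000525). LINC00707 missed the 2-fold threshold (-0.93 ± 0.14, adjusted p = 0.000619), as did LINC01605 (-0.59 ± 0.12), LINC00467 (-0.56 ± 0.09) and LINC01116 (-0.44 ± 0.08), each with an adjusted p under 0.05. LINC00511, which is reported to favour proliferation, had a log2 fold change of 0.31 ± 0.11 (adjusted p = 0.0452), and its adjusted p was 0.05 or more in 10 of 13 refits, among them DESeq2 (0.089) and each library left out. LINC00339 (0.56 ± 0.10, adjusted p = 0.00202) and LINC00294 (0.44 ± 0.09, adjusted p = 0.0036) were higher by less than 2-fold. Over the 170, 65 had an adjusted p under 0.05 and a change under 2-fold.

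For 68 LINC transcripts the adjusted p was 0.05 or more. The 5 of these with the most reads were LINC00472, LINC00205, LINC00702, LINC01139 and LINC01355. LINC00205 had 998, 982 and 991 normalized counts in siControl and 1018, 981 and 858 in siPVT1 (-0.06 ± 0.08, adjusted p = 0.568), with overlapping groups. LINC00472, reported as a tumour suppressor in breast cancer, had 1248, 1491 and 1271 in siControl and 1961, 1747 and 1133 in siPVT1, where replicate 3 lay below and replicates 1 and 2 above all siControl libraries (0.27 ± 0.18, adjusted p = 0.241). Without siPVT1 replicate 3 its log2 fold change was 0.46 (adjusted p = 0.00148), and without siPVT1 replicate 1 it was 0.089 (adjusted p = 0.693). LINC01139, also known as LINK-A, had 350, 281 and 201 in siPVT1, on both sides of a siControl mean of 294 ± 4.93 (SD, n = 3; -0.09 ± 0.18, adjusted p = 0.691). LINC00702 had a log2 fold change of -0.22 ± 0.09 (adjusted p = 0.0588) and LINC01355 one of -0.03 ± 0.16 (adjusted p = 0.872).

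LINC00261, which lies beside the endoderm factor gene FOXA2 and is known to act in endoderm differentiation, was set by single libraries. It had 3.81, 73.7 and 1.85 normalized counts in siControl and 8.91, 29.5 and 5.64 in siPVT1, with replicate 2 the highest of each group. The log2 fold change was -0.84 ± 1.16 (adjusted p = 0.565), and without siControl replicate 2 it was 2.31 (adjusted p = 0.0784). The summed raw counts of 7 genes of gastric and intestinal mucosa, REG4, TFF1, LYZ, CLCA1, TSPAN8, CLDN18 and AGR2, were 55, 919 and 13 in siControl and 37, 244 and 36 in siPVT1. These genes were chosen after their values were seen, and their part in the result was not tested. FOXA2 did not follow this order, with 13.3, 17.2 and 14.8 normalized counts in siControl and 115, 77.6 and 73.3 in siPVT1 (2.54 ± 0.25, adjusted p = 7.13e-05). LINC02101 (0.64 ± 0.27, adjusted p = 0.0695) and LINC00921 (0.07 ± 0.34, adjusted p = 0.875), the others nearest the minimum, did not pass the test.

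Since some LINC transcripts act on a gene nearby, the log2 fold change of each was set beside that of its nearest protein-coding gene, which was tested for 128. The sign was the same in 68 (53.1%), and over 10600 pairs of neighbouring protein-coding genes it was the same in 53.8%. Across the 128 pairs, which share libraries and are not independent, Pearson's r was 0.04 and Spearman's rho 0.12, and across the protein-coding pairs they were 0.10 and 0.10. For neighbours within 100 kb the sign was the same in 59 of 106 (55.7%, beside 53.8% of protein-coding pairs). Over all protein-coding genes tested, 21.1% were called. Of the 29 called LINC transcripts with a tested neighbour, the neighbour was called in the same direction for 4 (C13orf46, EFNB2, THBS2 and NRIP1) and in the other direction for 1 (GAS6). The sign was the same for 14 of these 29 (48.3%). Among the others, ZFP14 was higher (0.95, adjusted p = 0.00153) beside the lower LINC00665. DPYD was higher (0.55, adjusted p = 0.00796) beside the lower LINC01776. Starts within 5 kb in divergent orientation were found for 9, of which 4 had the sign of their partner. LINC00894, for example, rose (1.09 ± 0.29, adjusted p = 0.0124, a call lost without siControl replicate 1 or 3 or siPVT1 replicate 1, with the total count and against a 2-fold change) while EOLA2 changed by -0.57 (adjusted p = 0.00741), and LINC00205 at -0.06 lay beside POFUT2 at 0.84 (adjusted p = 2.51e-05). LINC00958 fell beside TEAD1, a partner of YAP1, which changed by 0.20 ± 0.05 (adjusted p = 0.0107).

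**Figure D4:**
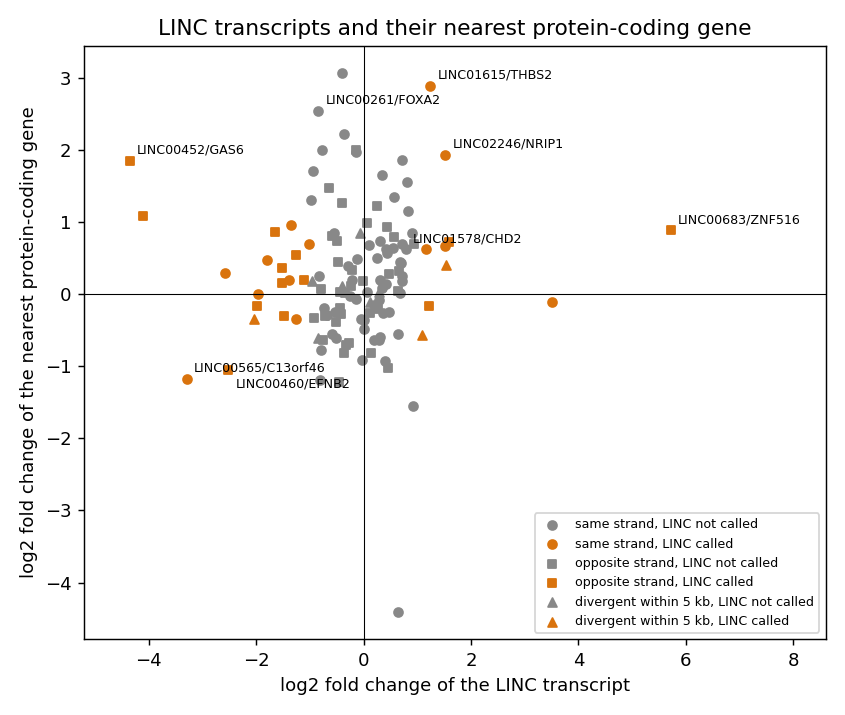
Log2 fold change of the nearest protein-coding gene (y axis) against that of the LINC transcript (x axis) for the 128 pairs that were both tested, with circles for the same strand, squares for opposite strands and triangles for divergent starts within 5 kb (orange where the LINC transcript was called). The points fill all quadrants, with LINC00565/C13orf46 and LINC00460/EFNB2 low on both axes and LINC00452/GAS6 low and high.

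Some LINC transcripts lay close to each other. There were 9 pairs with a gap under 200 kb, and LINC00452 with LINC00565 was the only pair in which either was called. LINC01117 and LINC01116, which overlap by 26495 bases near the HOXD cluster, had log2 fold changes of 0.06 and -0.44. LINC00526 and LINC00667, which overlap by 773 bases on chromosome 18, had 0.55 and -0.22, and LINC01273 and LINC01270 on chromosome 20 had -0.54 and 0.46.

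Other classes of non-coding gene are given side by side, with the caution that their depth differed. Antisense RNAs were called in 143 of 477 (30.0%), microRNA host genes in 12 of 29 (41.4%) and small nucleolar RNA host genes in 9 of 26 (34.6%). Over all genes tested 21.5% were called. The median normalized counts of these classes were 27.9, 142 and 540 in the same order, so that the host genes were deeper than the LINC transcripts and the antisense RNAs shallower. Of microRNA host genes 10 were higher and 2 lower, of small nucleolar RNA host genes 1 was higher and 8 lower, and of the LINC transcripts 14 were higher and 23 lower. LINC rows that passed the filter with a mean raw count under 20 were called in 59 of 175 (33.7%), 40 lower and 19 higher, at a median of 9.39 normalized counts against 67.8 for the 170. Protein-coding genes were called in 21.1%, more often higher (12.5%) than lower (8.55%). The differences between classes were not tested.

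**Figure D5:**
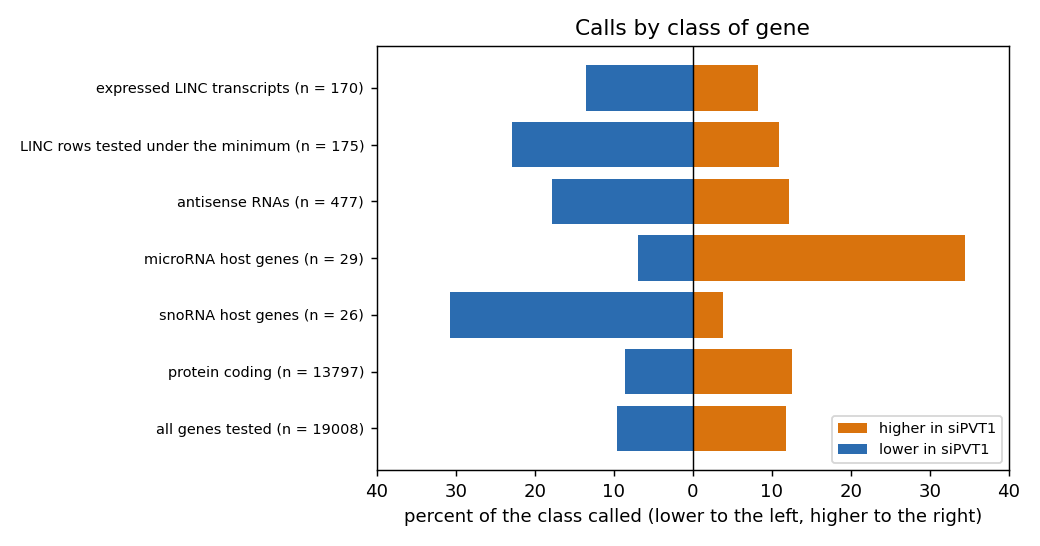
Percent of each class of gene that was called higher in siPVT1 (orange, to the right of 0) or lower (blue, to the left of 0), with the number tested in brackets. Expressed LINC transcripts had 8.24% higher and 13.5% lower, microRNA host genes lie mostly to the right and small nucleolar RNA host genes mostly to the left.

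As a share of all reads, LINC transcripts took 0.122%, 0.13% and 0.12% of the counts in siControl and 0.108%, 0.107% and 0.0973% in siPVT1. The siPVT1 libraries were all lower, with means of 0.124% ± 0.00556 in siControl and 0.104% ± 0.00563 in siPVT1 (SD, n = 3, exact permutation test, two-sided, p = 0.1, the smallest that 3 against 3 allow). These are shares of the raw totals, before TMM scaling. Scaled by the total count, the median log2 fold change was -0.15 over all genes tested and -0.13 over LINC transcripts. A typical gene tested thus also took a smaller share in siPVT1, and how much of the fall is particular to LINC transcripts was not tested. Without LINC01322, the transcript with the highest mean count, the means were 0.115% and 0.097%. LINC01322 changed little (log2 fold change -0.24), so leaving it out cannot show whether the fall was spread over many transcripts. The summed raw counts of LINC transcripts had means of 38125 in siControl and 32535 in siPVT1. LINC00958 alone went from a mean of 3353 to 1435 raw counts and LINC02693 from 1925 to 1145. Others rose, such as LINC00963 (1247 to 1848) and LINC00342 (1514 to 2060). The share without LINC00958 was not tested.

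A promoter sequence from RefSeq, from 250 bases before to 50 bases after the start, was found for 121 of the 170, among them 12 called higher and 12 called lower. The AP-1 motif TGANTCA was found on either strand in 18 of the 121 (14.9%), beside 7.71% of all 35116 promoters in the table, and in 2 of the 12 called higher and 3 of the 12 called lower. The antioxidant response motif TGACNNNGC was found in 28 (23.1%, beside 13.3%), in 1 of the 12 called higher and 2 of the 12 called lower. The hypoxia core NACGTGC (8.26%, beside 6.86%), the E-box CACGTG (5.79%, beside 7.26%), the interferon response motif GAAANNGAA (5.79%, beside 8.11%), the cyclic AMP response motif TGACGTCA (2.48%, beside 1.85%) and the TATA box TATAAA (13.2%, beside 11.5%) were found at shares closer to those of all promoters. The related cyclic AMP motif TGACGCAA was in none of the 121 and the NF-kB motifs GGGACTTTC and GGAATTTCC in 1. Hypoxia core and E-box matches can overlap. The median GC content was 54.3% for the 121 and 58.7% for all promoters. These are matches of letters and not sites, and the difference in shares was not tested.

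Nuclear RNA of this kind is removed by the exosome with its NEXT and PAXT adaptors, and its transcription is cut short by the Integrator complex. Of 46 genes listed for these and related steps, all were tested, 3 were called and all 3 were lower (over all genes 21.5% were called, 9.64% lower). They were INTS7 (-1.74 ± 0.18, adjusted p = 7.84e-05) and INTS12 (-1.20 ± 0.11, adjusted p = 5.63e-05), both subunits of Integrator, and the termination factor PCF11 (-1.01 ± 0.07, adjusted p = 1.05e-05). INTS7 had 1359, 1320.4 and 1306 normalized counts in siControl and 308, 347 and 529 in siPVT1. By the adjusted p alone, 27 of the 46 were lower and 4 higher (over all genes 28.4% and 29.5%), and the median log2 fold change was -0.38. Of the 13 exosome genes 7 were lower and 1, C1D, was higher by this criterion, with changes from -0.88 for EXOSC6 to 0.68 for C1D. Whether these genes had a part in the levels of LINC transcripts was not tested.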

How the data were processed

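The data were RNA-sequencing libraries of SK-OV3 cells, 3 siControl and 3 siPVT1, grouped and numbered by the sample titles, and every column of the table was matched to a sample. The authors prepared mRNA libraries, which hold polyadenylated RNA, sequenced single-end reads, used STAR for alignment to GENCODE transcripts (GRCh38.p13) and Salmon for counting. What they deposited are Salmon's estimated counts for each symbol, rounded to whole numbers and not normalized. The submitters' processing notes name STAR 2.7.3a, Salmon 0.14.1 and DESeq2 1.28.1, and the strand setting is not given in the sources used here. Where transcripts are nearly identical, Salmon assigns reads to them by estimation, so counts of close copies are uncertain.

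The quasi-likelihood test of edgeR 4.0.16 in R 4.3.3, after TMM scaling, was applied to genes that reached 5 normalized counts in 3 or more libraries. Calls required a Benjamini-Hochberg adjusted p under 0.05 together with a log2 fold change of 1 or more in either direction. The SE was derived from the test's F, as the size of the log2 fold change over the root of F. The script was first tested on simulated data. The replicates are separate samples by their labels, and nothing says that they came from separate cultures, so p-values measure the spread between these samples, which may be technical.

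Members, gene lists and motifs were chosen with earlier results of these data known. The transcripts named were the 10 with the most reads, the 12 higher and 12 lower with the smallest p, the 5 with the largest change each way, those with at most 3 counts in every library of a group, the 5 with the most reads among those with an adjusted p of 0.05 or more, those nearest the minimum, and a list of 28 with reported roles. Nearest protein-coding genes are named for some of these transcripts only. Positions came from GENCODE v44 (GRCh38), and promoters from RefSeq (GRCh38.p14). Alternatives were DESeq2 1.42.0, other scalings and filters, the replicate block, each library left out and a test against a 2-fold change.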

Additional observations from a re-analysis of the deposited data

How the results depend on the processing

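The 37 calls were the same transcripts with DESeq2, with its size factors in edgeR, without the filter on low counts, with filterByExpr and with the replicate block, 14 higher and 23 lower in each. The replicate block left 90 with an adjusted p under 0.05, and the median log2 fold change was 0.01. Same-numbered libraries had correlations of -0.04, 0.04 and 0.00 in their deviations from the group means, and differently numbered ones -0.05 to 0.06. Values over all genes cannot decide whether the replicate numbers pair the samples, since pairing could show in few genes. Scaling by the total count moved the median of all genes by -0.15 and that of LINC transcripts to -0.13, with 42 calls. Testing against a 2-fold change left 20 calls, 5 higher and 15 lower, all among the 37. Requiring a mean raw count of at least 20 in both groups left 14.6% called, by its construction, and higher minimums of 50 and 100 gave 20.6% and 17.1%.

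With a library left out, the calls ranged from 34 to 40 (11 to 16 higher, 20 to 26 lower), those with an adjusted p under 0.05 from 76 to 101, and the median from -0.06 to 0.06. LINC00452 and LINC00944 without a siControl library, and LINC00683 without a siPVT1 library, had too few libraries above the filter to be tested. LINC02188 fell to 0.96 without siControl replicate 3, and LINC00707 passed at -1.08 with the total count. Signs turned for 4 named transcripts that were not called. With libraries left out, LINC00261 ranged from -1.87 to 2.31 (the highest without siControl replicate 2), LINC00921 from -0.14 to 0.45, LINC01139 from -0.31 to 0.082 and LINC01355 from -0.18 to 0.13, and LINC00921 was -0.073 with the total count. The cause was not tested. With both libraries numbered 2 left out, an alternative chosen after seeing the data, 31 were called (12 higher, 19 lower, 30 of them among the 37), 56 had an adjusted p under 0.05, LINC00173 missed it at 0.0684, LINC00921 was -0.23 and LINC01355 was 0.0063. In the test against a 2-fold change, LINC00958, LINC00520 and LINC01776 were among the 17 lost. Leaving out that test and the refits that could not be made, 597 of 610 refits of named transcripts kept direction and call. The call asks whether both thresholds were passed together, and the adjusted p alone could still cross 0.05. It did so for LINC00511 in 10 of 13 refits and for LINC01322 in 5. At 20 to 50 counts the SE of 0.27 limits what can be seen, and a change that missed the threshold is not shown to be absent.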
